A study of Mus musculus with 2 samples.

Results

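Antisense transcripts are RNAs read from the strand opposite to another gene, most often a protein-coding one. Here they were the 4484 transcripts that the annotation in the deposited tables classes as antisense, of 141767 transcripts in all. They were picked by that class alone, after leaving out 27 transcripts of the imprinting and X-inactivation genes Airn, Kcnq1ot1 and Tsix and of the snoRNA host genes whose names start with Snhg. The 4484 transcripts belonged to 3085 genes, of which 2314 had 1 antisense transcript and the richest had 20. The gene as a whole was classed as antisense for 4181 of them, as processed transcript for 298 and as protein coding for 5. The libraries were made from poly(A)+ RNA of the left cerebral cortex of adult mice (strain B6NCrl, age 6 months) by the Nextera method, whose transposase fragments the cDNA, starting from 20 ng. There was 1 group with 2 libraries, called biological replicates 1 and 2. Both libraries carried the same donor entry, and nothing else says that they came from separate animals, so each spread below is that between these libraries. A label field called the tissue male and another gave the sex as not collected. No treatment, genotype or age was compared, and no test between conditions was possible.

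Each library was quantified by the authors in 2 ways. The alignment table below was made from alignments to the transcriptome, and the read table from the pair of read files. Levels are given in TPM, a unit scaled to a fixed sum in each library that allows for transcript length and can be compared between genes. The libraries held 51875733 and 26770757 fragments on transcripts in the alignment tables. Of these, 92871 and 55328 fell on the antisense transcripts, 0.179% and 0.207%. The listed markers of neurons and glia were present. In the alignment gene tables Snap25 (a synaptic protein of neurons) stood at 2359 and 2730 TPM and Mbp (myelin) at 2061 and 2049 TPM. Slc1a2 (the astrocyte glutamate transporter) was at 165 and 188 TPM. Camk2a was at 848 and 1083 TPM, Tyrobp at 87.2 and 97.6 TPM and Cldn5 at 94.2 and 131 TPM. The libraries differed most in Slc17a7 (excitatory neurons), at 82.7 and 37.2 TPM, beside Gad1 (GABAergic neurons) at 114 and 162 TPM. Hbb-bs (blood) was at 20.5 and 15.4 TPM and Ttr (choroid plexus) at 54.3 and 39.9 TPM.

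An antisense gene can share a promoter region with its sense gene and point away from it, can run across the sense gene's start or end, or can lie wholly inside it. Some of these RNAs are known to act on the chromatin or transcription of the neighbouring gene, some carry small RNAs in their introns, and for most no role is known. Several, such as Dlx6os1 and Six3os1, lie beside homeobox genes of forebrain development. Nextera libraries as a rule do not mark the strand, and the sources used here do not give the use of strand in the counting. Where antisense and sense exons overlap, reads of the 2 genes therefore cannot be told apart by strand, and this bears on every level below.

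The stretches shown first differ in exactly this respect. Chn1os1-201, a 636-base transcript of 2 exons (mm10, chr2:73658270-73660263, + strand), lies inside Chn1, which encodes chimaerin 1, a GTPase-activating protein for Rac. Of its bases, 83.8% are in exons of the opposite strand, and 16.5% of its 31-base words occur in no other gene. Bases 131 to 304, chr2:73659758-73659931, are printed because all 174 of them lie in opposite-strand exons, which the capitals mark.
Chn1os1-201: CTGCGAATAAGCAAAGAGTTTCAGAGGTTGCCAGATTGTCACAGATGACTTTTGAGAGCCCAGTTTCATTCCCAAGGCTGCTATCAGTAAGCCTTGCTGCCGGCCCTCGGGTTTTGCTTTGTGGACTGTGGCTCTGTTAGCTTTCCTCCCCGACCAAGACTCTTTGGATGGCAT
Gm47551-201, of 165 bases in 2 exons (chr13:98801172-98803736, + strand), lies inside Fcho2. It is printed whole, with the 39 bases in opposite-strand exons in capitals, because its words occur in 1118 other genes and 6.67% of them are its own. Its letters are those of the B2 family of short interspersed repeats, given here as background.
Gm47551-201: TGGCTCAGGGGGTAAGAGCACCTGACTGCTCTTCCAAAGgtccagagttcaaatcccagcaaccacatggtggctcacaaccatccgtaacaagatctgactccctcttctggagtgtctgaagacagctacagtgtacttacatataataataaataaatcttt

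Like Gm47551-201, the next transcripts end in sequence that no opposite-strand exon covers. Their last 50 bases are printed because the libraries were selected for poly(A) tails, and capitals mark the polyadenylation signals AATAAA or ATTAAA. The sequences are from the GENCODE M21 transcripts.
2310009A05Rik-201 (chr9:73042730-73042779, + strand): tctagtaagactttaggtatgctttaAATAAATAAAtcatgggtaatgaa
Zfas1-205 (chr2:167065813-167065862, + strand): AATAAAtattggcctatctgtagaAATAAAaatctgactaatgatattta
Sp3os-201 (chr2:72988628-72988677, + strand): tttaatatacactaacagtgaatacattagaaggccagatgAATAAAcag
2810001G20Rik-201 (chr11:64083210-64083259, + strand): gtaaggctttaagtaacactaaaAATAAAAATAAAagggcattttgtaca
AC109619.1-201 (chr19:7087469-7087518, - strand): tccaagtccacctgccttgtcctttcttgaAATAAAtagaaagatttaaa
Rab26os-202 (chr17:24528695-24528744, + strand): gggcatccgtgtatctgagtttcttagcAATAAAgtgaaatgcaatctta
Zfp652os-201 (chr11:95700106-95700155, - strand): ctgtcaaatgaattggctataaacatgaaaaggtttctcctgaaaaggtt
The last of these, Zfp652os-201, holds neither signal in this window.

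A transcript was called detected when it reached 1 TPM in all 4 columns, that is, in both libraries and both quantifications. By this rule 274 antisense transcripts were detected, 6.11% of the 4484, against 15.6% of all 141767 transcripts. The share was 3.67% for lincRNAs (334 of 9101), 6.64% for retained introns, 10.5% for processed transcripts and 28.9% for protein-coding transcripts. The small class of bidirectional promoter lncRNAs stood at 15.3% (50 of 327). At the other end, 1286 antisense transcripts (28.7%) were listed at 0 in all 4 columns, against 31.4% of all transcripts. Detected antisense transcripts had a median of 2.86 and 3.33 TPM in replicates 1 and 2 of the alignment tables, and 2.66 and 3.10 TPM in the read tables. The medians for detected protein-coding transcripts were 8.17 and 7.80 TPM in the alignment tables. Thus the antisense class was low in both libraries, at 0.280% and 0.304% of all TPM in the alignment tables and 0.313% and 0.354% in the read tables. Within it the level was uneven: the top transcript of a column held 10.8% to 18.2% of the class's TPM over the 4 columns, the top 10 held 30.6% to 41.9% and the top 50 held 52.2% to 61.5%. Depth was thin for a few: 13 of the 274 had under 10 fragments in a library of the alignment tables, and Gm10421-202 was detected on 1 fragment in each.

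Ranked by the lower of its 2 quantifications, Chn1os1-201, shown above, was the highest antisense transcript. It stood at 301 and 408 TPM in replicates 1 and 2 of the alignment tables (355 ± 75.8, SD, n = 2) and at 281 and 333 TPM in the read tables. Its sense gene Chn1 was itself among abundant cortical genes, at 908 and 1094 TPM in the alignment gene tables. Gm28221-201, all of whose 347 bases lie in exons of Ncald (neurocalcin delta, a neuronal calcium sensor), was at 77.1 and 81.7 TPM in the alignment tables and 65.3 and 79.1 TPM in the read tables. Gm20659-201, which lies wholly in exons of the phosphatase gene Dusp3, was at 141 and 180 TPM in the alignment tables but at 22.4 and 60.4 TPM in the read tables. Gm38039-201, wholly in exons of Tnr (tenascin-R of the neuronal extracellular matrix), was at 25.6 and 53.8 TPM in the alignment tables. Few 31-base words were specific to these transcripts: 4.42% in Gm28221-201, 3.83% in Gm20659-201 and 7.26% in Gm38039-201.

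Other high transcripts rest mostly on sequence of their own. 2310009A05Rik-201 starts 19 bases upstream of the nearest start of Pigb, which encodes a mannosyltransferase of GPI anchor synthesis, and 29.8% of its bases lie in opposite-strand exons. It stood at 93.5 and 110.5 TPM in the alignment tables and at 71.0 and 93.3 TPM in the read tables, while Pigb was at 7.03 and 5.43 TPM. Zfas1-205, an isoform of a snoRNA host gene beside Znfx1, was at 56.4 and 89.2 TPM in the alignment tables and 45.3 and 77.7 TPM in the read tables. The libraries were closer for Sp3os-201 (43.3 and 41.7 TPM in the alignment tables) and Zfp652os-201 (20.4 and 20.6 TPM). Among transcripts with no base in an opposite-strand exon and at least 90% of words of their own, 2810001G20Rik-201 was highest by the mean over libraries, at 21.7 and 20.7 TPM in the alignment tables and 16.7 and 18.8 TPM in the read tables. Tug1-201, with 92.0% of words of its own, was above it in replicate 2, at 22.0 and 20.3 TPM in the 2 quantifications. 2810001G20Rik-201 starts 18 bases from Cox10, which encodes an assembly enzyme of cytochrome oxidase, on the other strand. Gt(ROSA)26Sor-201, from the Rosa26 locus widely used to carry transgenes, was at 20.9 and 18.3 TPM in the alignment tables and starts 155 bases from Setd5. AC109619.1-201, a single exon inside Macrod1, was at 17.4 and 18.1 TPM in the alignment tables. In all, 1808 antisense transcripts met both conditions and 74 of them (4.09%) were detected.

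**Figure D1:**
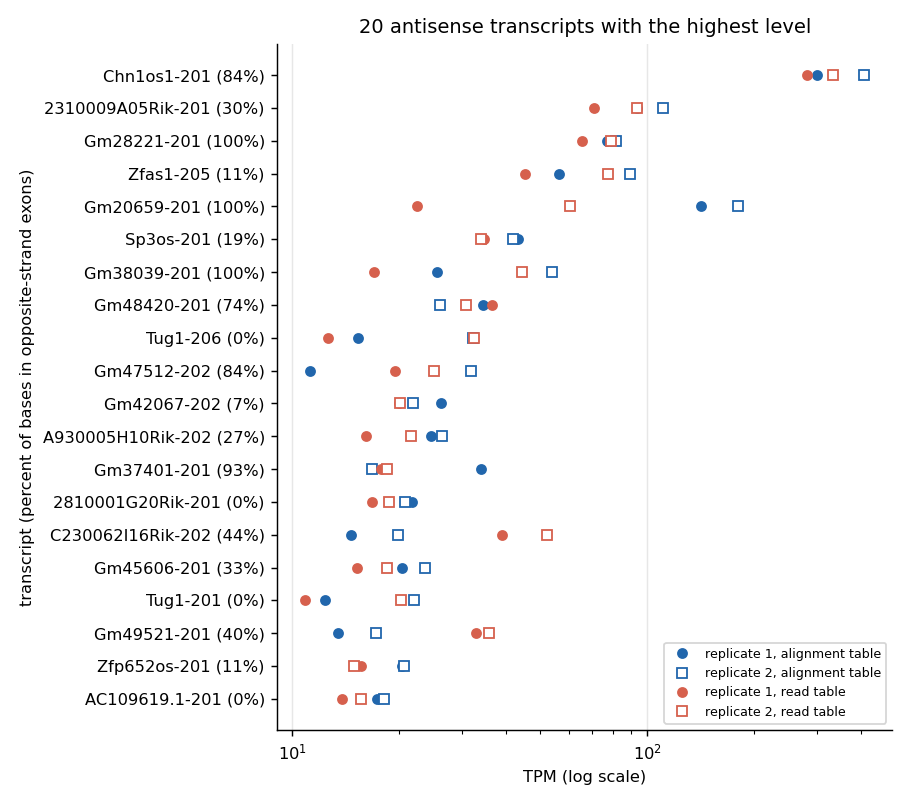
TPM (horizontal log axis) of the 20 antisense transcripts with the highest level, each with 4 points for 2 libraries (circle, replicate 1; square, replicate 2) and 2 quantifications (blue, alignment table; red, read table), and with the percent of its bases in opposite-strand exons in the label. Of the 20 shown, Chn1os1-201 is highest in every column, and Gm20659-201 shows the widest gap between blue and red points.

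Levels were set beside the share of each transcript's bases that lie in exons of the opposite strand. No such base was found in 1983 transcripts, of which 87 (4.39%) were detected. Of the 1983, 1414 overlap a coding gene of the other strand outside its exons, and 35 of these were detected. Among the 649 transcripts, of any exon overlap, that overlap no such gene, 57 were detected (8.78%). The share detected was 7.50% (144 of 1921) with some overlap below 50%, 6.64% (28 of 422) from 50% to under 90%, and 9.49% (15 of 158) at 90% or more. The 15 detected at 90% or more were also higher, with a median of 6.87 and 8.73 TPM in the alignment tables, against 2.61 and 2.95 TPM for the 87 with none. In the read tables the medians were closer in replicate 1, at 3.54 and 7.46 TPM against 2.75 and 3.21 TPM. Their levels ordered with those of the sense gene: across these 15 transcripts Spearman's rho with the positional sense gene was 0.875 and 0.846 in the alignment tables and 0.846 and 0.761 in the read tables. Over all 156 transcripts at this overlap with a positional sense gene, detected or not, rho was 0.291 and 0.301 in the alignment tables and 0.243 and 0.233 in the read tables. Across the 35 detected transcripts that have a positional sense gene and no overlapping exon base, rho was 0.234 and 0.180 in the alignment tables. These are descriptions across transcripts that share libraries, and the 15 share most of their sequence with the sense gene. In the 15, a median of 5.37% of words were a transcript's own, against 100% in the 87. The share of these levels that comes from sense RNA was not tested.

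Detection was next set beside the position of the transcript's start. Of the 274 detected transcripts, 173 (63.1%) start within 1000 bases of the start of a coding gene on the other strand, against 1347 of the 4210 not detected (32%). Of the 173, 98 start upstream of the coding start, so that the 2 genes point apart, and 75 start downstream of it and read towards it. Whether each of the 75 runs past the coding start was not tested. Read the other way, 11.4% of the 1520 transcripts with such a start were detected and 3.41% of the 2964 without. The median distance was 412 bases for detected transcripts and 6518 bases for the rest. By layout, detection ran from 3.29% of the 2127 transcripts that lie wholly within a coding gene to 9.46% of the 930 that overlap its 5′ end. It was 8.18% for the 648 that overlap a 3′ end and 8.78% for the 649 that overlap no coding gene. When detected, transcripts starting near a coding start were not higher: their median was 2.82 TPM in replicate 1 of the alignment tables, against 3.68 TPM for the others.

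**Figure D2:**
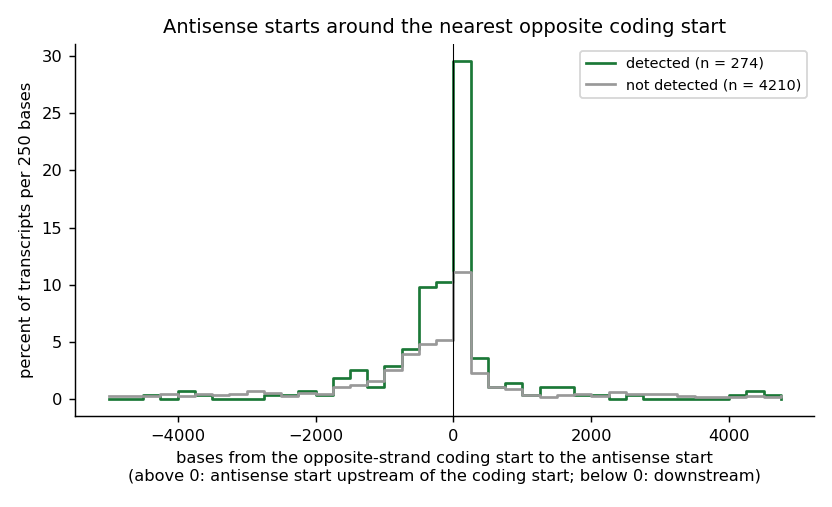
Percent of transcripts (vertical axis, per 250 bases) by distance in bases from the nearest opposite-strand coding start to the antisense start, for the 274 detected (green) and 4210 other (grey) antisense transcripts; starts over 5000 bases away are outside the plot but count in the percent. Both lines peak just upstream of the coding start, the detected one higher.

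Promoters were read from RefSeq windows of 300 bases (GRCm38.p6, 250 before to 50 after the start), which 1127 of 3084 antisense gene symbols matched. For each gene the first listed window was used, which need not be that of a detected transcript. CG dinucleotides are dense in promoters of the CpG island type, which many widely expressed genes have. Genes with a detected antisense transcript (112) had a median of 20 CG, and 74.1% had at least 10. The 1015 with none detected had a median of 5, and 29.3% had at least 10. Over all 27025 promoters in the table the median was 7, and 43.9% had at least 10. The letters TATAAA, searched on both strands, occurred in 9.82% of promoters of genes with a detected transcript, 11.0% of the others and 14.2% of all. The 433 genes with a start within 1000 bases of a coding start had a median of 15 CG, and the other 694 had 4, so start position and CG count go together here. The promoter of Tug1 is shown as CG-rich (37 CG) and that of Rab26os as nearer to the middle (11 CG), with each CG in capitals.
Tug1 (chr11:3648765-3649064, - strand): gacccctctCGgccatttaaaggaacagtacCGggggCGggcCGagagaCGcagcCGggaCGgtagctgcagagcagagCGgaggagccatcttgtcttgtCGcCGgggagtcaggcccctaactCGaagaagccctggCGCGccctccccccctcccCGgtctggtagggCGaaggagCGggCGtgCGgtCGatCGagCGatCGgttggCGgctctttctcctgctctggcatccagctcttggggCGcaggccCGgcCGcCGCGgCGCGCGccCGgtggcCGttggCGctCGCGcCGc
Rab26os (chr17:24528001-24528300, + strand): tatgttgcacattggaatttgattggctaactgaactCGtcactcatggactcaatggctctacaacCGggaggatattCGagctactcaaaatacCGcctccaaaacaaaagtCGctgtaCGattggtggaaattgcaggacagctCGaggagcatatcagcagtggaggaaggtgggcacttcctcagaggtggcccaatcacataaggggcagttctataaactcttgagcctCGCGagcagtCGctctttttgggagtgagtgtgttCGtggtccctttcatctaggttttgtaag

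At the other end of the transcript, AATAAA or ATTAAA stood in the last 50 bases of 145 of the 274 detected antisense transcripts (52.9%) and of 41.7% of those not detected. Among detected transcripts of other classes the share was 59.6% for lincRNAs, 67.6% for protein-coding, 32.2% for processed transcripts and 60.7% for all. The 87 detected without overlap reached 56.3%, and 4 of the 15 detected at 90% overlap or more held a signal. These are matches in annotated ends, which can be incomplete, and are not measured cleavage sites.

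Named pairs were antisense genes whose symbol is that of another gene plus os or as. There were 266, all on opposite strands, and the TPM of an antisense gene is summed here over its antisense transcripts. Of the 266, 32 antisense genes (12.0%) and 182 sense genes reached 1 TPM in all 4 columns, 28 pairs with both. By the same sum and rule, 249 of all 3085 antisense genes were detected. Over the 190 pairs with a summed level of at least 1 TPM, the antisense gene gave a median of 0.305% and 0.333% of the pair's TPM in the alignment tables, and 0.791% and 1.03% in the read tables. In most pairs, then, little antisense RNA was measured beside the sense gene. Across the 32 pairs with a detected antisense gene, Spearman's rho between the levels of the 2 genes was 0.483 and 0.449 in the alignment tables. Across all 190 it was -0.01 in each library. Both are across pairs within a library.

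Pairs were grouped by how the sense symbol starts. In 26 pairs the symbol starts as those of listed families of developmental transcription factors (such as Dlx, Sox, Hox, Emx, Zfhx and Zeb). Of these, 5 antisense genes were detected (19.2%). The median share of the 15 measured pairs was 6.23% and 7.87% in the alignment tables. Over all 26, the median level there was 0.005 and 0 TPM for the antisense gene and 2.015 and 1.655 TPM for the sense gene. In the 226 pairs outside the listed groups these medians were 0.03 and 0.03 TPM and 6.74 and 6.465 TPM. The list does not hold every such gene: Prox1os and Runx2os1, both detected, count among the other pairs. Dlx1as and Dlx6os1 lie at Dlx genes, homeobox genes of GABAergic interneurons. Dlx1as was at 5.93 and 4.92 TPM beside Dlx1 at 13.4 and 8.52 TPM in the alignment tables. Dlx6os1, which includes the RNA known as Evf2, was at 2.78 and 3.56 TPM, just above Dlx6 at 2.50 and 2.75 TPM. The order was the same in the read tables, where Dlx6os1 gave 61.1% and 57.7% of the pair. Emx2os (1.54 and 1.34 TPM in the alignment tables) was below its sense gene in all 4 columns, as was Zeb2os (2.15 and 2.01 TPM) beside Zeb2 at 37.6 and 30.6 TPM. Zfhx2os was at 1.5 and 1.23 TPM beside Zfhx2 at 3.66 and 1.97 TPM in the alignment tables, but in replicate 2 of the read tables it was at 1.90 TPM against 1.83 TPM. Zeb2 and Emx2 encode regulators of forebrain development. Six3os1, with 12 antisense transcripts, summed to 0.41 and 0.86 TPM and Nkx2-2os to 0.07 and 0.32 TPM in the alignment tables, and neither was detected.

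Of 14 pairs whose sense symbol starts like those of listed channels, receptors and transporters, 2 antisense genes were detected. Of these, 4 match by their letters alone: Trp73os, at the gene of the transcription factor p73, and Grip1os1, Grip1os2 and Grip1os3, at that of a scaffold protein, none of them detected. Chrna1os was at 4.66 and 6.26 TPM in the alignment tables while Chrna1, the muscle-type acetylcholine receptor subunit, was at 0.45 and 0.26 TPM. Kcnd3os was at 1.55 and 1.16 TPM beside the potassium channel gene Kcnd3 at 3.37 and 3.01 TPM. No exonic base of Chrna1os lies in an opposite-strand exon, and its share of the pair was 90.2% to 96.0% over the 4 columns.

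The remaining 226 pairs had 25 detected antisense genes (11.1%). Sp3os, beside the transcription factor gene Sp3, was the highest that exceeded its sense gene, at 65.3 and 61.4 TPM against 7.80 and 11.2 TPM in the alignment tables. Zfp652os was at 20.4 and 20.6 TPM against 3.76 and 6.85 TPM for Zfp652, a zinc finger gene. In both pairs the libraries did not overlap between the 2 genes. Over all groups 9 of the 32 detected antisense genes were above their sense gene in all 4 columns: these, Chrna1os and Dlx6os1, and Taco1os, Prox1os, Ccdc142os, Etaa1os and Brip1os. Brip1os, at 1.40 and 1.42 TPM, lies beside a DNA repair helicase gene that was at 0.02 and 0.04 TPM. Prox1os was at 4.86 and 5.59 TPM beside the homeobox gene Prox1 at 2.30 and 2.21 TPM. Ccdc142os was at 4.15 and 5.07 TPM, and 1 of its transcripts lies wholly in opposite-strand exons. Tmem147os (13.6 and 15.9 TPM) and Pcsk2os1 (5.79 and 7.51 TPM) lie beside much higher sense genes, at 137 and 186 TPM for Tmem147 and 94.7 and 127 TPM for Pcsk2, which encodes a prohormone convertase. Rab10os was at 24.3 and 22.2 TPM, while Rab10, a vesicle GTPase gene, was at 71.5 and 23.6 TPM, so that the libraries differed in the sense gene. Uchl1os, known for its action on translation of Uchl1, was at 0.02 and 0.06 TPM in the alignment tables and 0.32 and 0.20 TPM in the read tables, beside Uchl1 at 1009 and 1016 TPM.

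**Figure D3:**
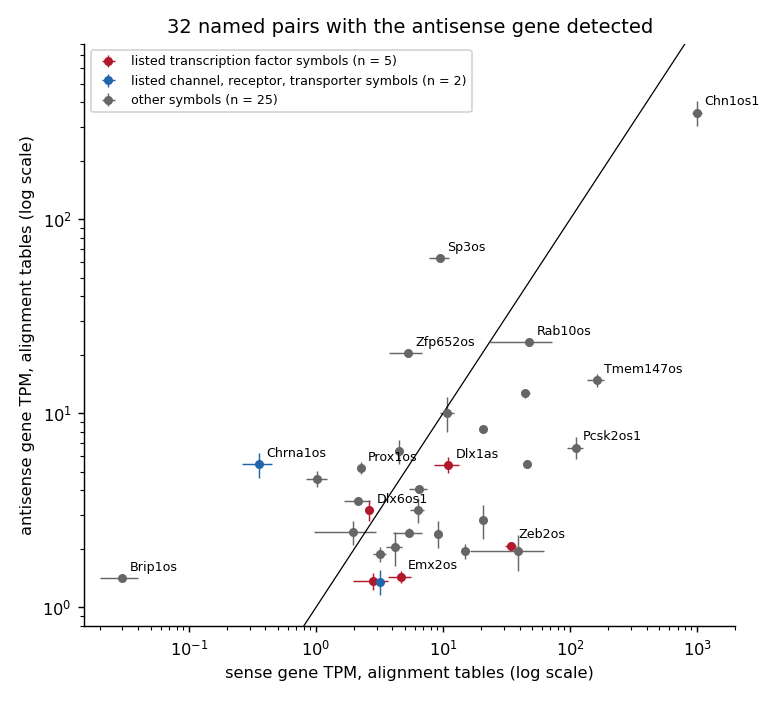
TPM of the sense gene (horizontal) and the antisense gene (vertical), both on log axes from the alignment tables, for the 32 named pairs with a detected antisense gene; points are means and bars run from one library to the other. The diagonal marks equal levels, with Sp3os and Zfp652os above it and Chn1os1 and Tmem147os below.

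Several genes spread their level over isoforms. Tug1, a long noncoding RNA first described in the retina, starts near Morc2a on the other strand and had 8 antisense transcripts. Tug1-203 was at 19.6 and 30.9 TPM, Tug1-206 at 15.3 and 32.3 TPM and Tug1-201 at 12.4 and 22.0 TPM in the alignment tables, each higher in replicate 2. In the read tables Tug1-203 was at 7.18 and 18.8 TPM. By contrast, Tug1-202, Tug1-204 and Tug1-208, were listed at 0 in all 4 columns. Tug1-205, a single-exon form, lies 5′ of these and overlaps Morc2a exons over 30.0% of its bases. It was at 3.09 and 0.04 TPM, lower in replicate 2. Rab10os had 7 antisense transcripts, of which 4 (Rab10os-203, Rab10os-205, Rab10os-206, Rab10os-207) each held 16.3% to 31% of the gene's TPM in both libraries. For Sp3os, Sp3os-201 held 66.3% and 68.0% and Sp3os-204 held 30.5% and 29.0%.

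The quantifications were compared because both were made from the same libraries, but they did not count the same fragments throughout. The read tables held 76100300 and 46367277 fragments on transcripts in replicates 1 and 2, against 51875733 and 26770757 in the alignment tables. The part of this gap in the differences below was not tested. A transcript was called where the quantifications differed by at least 2-fold in the same direction in both libraries, on log2(TPM + 0.1). It also needed a mean of at least 1 TPM in the higher quantification. Of 442 antisense transcripts, 35 were higher in the read table (7.92%, against 7.08% of all transcripts) and 12 lower (2.71%, against 4.59%). Together these were 47 (10.6%), near the 11.7% of all transcripts. TPM were compared without further scaling. The median log2 ratio of the read over the alignment table was -0.19 and -0.12 in replicates 1 and 2 for antisense transcripts. For all transcripts it was -0.38 and -0.26. The share called was 9.85% (13 of 132) in transcripts with no base in an opposite-strand exon, all 13 higher in the read table. At 90% overlap or more it was 24.1%, with 5 of 29 lower and 2 higher.

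Gm47551-201, the B2-like sequence printed above, was at 16.5 and 12.9 TPM in the alignment tables and at 470 and 646 TPM in the read tables. That made it the top antisense transcript of the read tables, on 21 and 13 fragments in the alignment tables. Gm37065-201 was at 0 in both alignment tables and at 34.7 and 44.0 TPM in the read tables, and shares words with 1114 other genes. Gm12953-201 was at 0.09 and 0 TPM in the alignment tables and at 16.5 and 30.1 TPM in the read tables, and shares words with 1120 others. Gm15564-202 shares words with 2 other genes. It was at 3.10 and 3.52 TPM in the alignment tables and at 159 and 53.2 TPM in the read tables. The part of shared words in these differences was not tested. In the other direction, Gm20463-201, wholly in exons of the ubiquitin ligase gene Rnf5, was at 47.7 and 45.7 TPM in the alignment tables and 0 and 5.15 TPM in the read tables. Gm44709-201, in exons of the elongation factor gene Supt5, was at 12.4 and 10.5 TPM against 0.29 and 0.96 TPM. Each shares its words with 1 other gene, as does Gm20659-201.

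**Figure D4:**
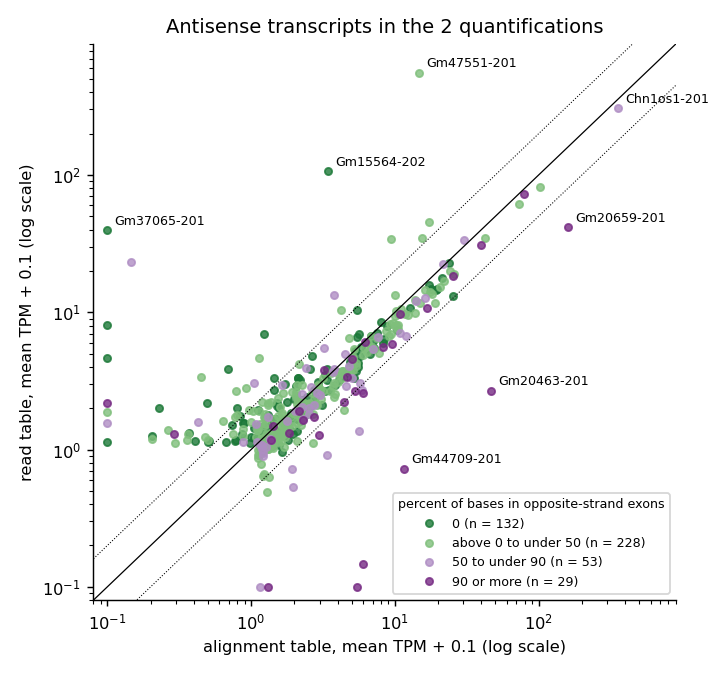
Mean TPM over 2 libraries, plus 0.1, in the alignment tables (horizontal) and read tables (vertical), on log axes, for antisense transcripts with a mean of at least 1 TPM in either; colours give the percent of bases in opposite-strand exons, the solid line equality and the dotted lines 2-fold. Gm47551-201 lies far above the diagonal, and Gm20463-201 and Gm44709-201 below it.

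The 2 libraries ordered the detected transcripts alike, with Spearman's rho of 0.877 in the alignment tables and 0.887 in the read tables across the 274. For a single transcript a difference was called at 2-fold or more on log2(CPM + 0.1), where CPM is the count relative to library size after TMM scaling. It also needed a mean of at least 0.5 CPM and a 95% counting interval that leaves out equality. This compares 1 library with 1 library and is no test of a condition. Of 494 antisense transcripts 79 were called (16.0%), against 26.0% of all transcripts. Replicate 2 was higher in 26 (5.26%, background 8.81%) and lower in 53 (10.7%, background 17.2%). With total-count scaling, which moves the median log2 ratio of all transcripts from -0.06 to 0.08, 38 were higher and 45 lower. In both quantifications 53 of 471 were called (11.3%, background 17.5%), 12 higher (2.55%, background 4.44%) and 41 lower (8.70%, background 13.0%). Calls ran from 9.65% of transcripts with no overlap (11 of 114) to 28.0% at 90% or more (7 of 25). Base composition moved with the ratio: the median GC content was 55.2% in the 53 lower, 49.3% in the 26 higher and 49.9% in all 494. Across the 494 the rho of GC content with the log2 ratio was -0.23, beside -0.19 in all transcripts. The part of GC content or overlap in these differences was not tested.

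Of the 6 named transcripts furthest towards replicate 1, 4 had an expected count of 0 in replicate 2. An expected count is an assignment by the quantifier, so that a 0 need not mean that no read matched, and by counting error alone it allows up to 3 fragments. Gm26918-201, inside the gene of the presynaptic protein Piccolo (Pclo), was at 15.1 and 0 TPM on 342 and 0 fragments. Gm12523-201 at Sort1, 4930500M09Rik-201 at Uhmk1 and 1700069B07Rik-202 at Usp31 had 129, 133 and 137 fragments in replicate 1 of the alignment tables, and were likewise at 0 in replicate 2 of both quantifications. Gm14205-201, in exons of the vesicular GABA transporter gene Slc32a1, was at 11.7 and 0.61 TPM, a log2 ratio of -3.90. Tug1-205 had a log2 ratio of -4.70. In the other direction, AC121821.3-201, 85.4% in opposite-strand exons at Matr3, was at 0 and 23.8 TPM on 0 and 116 fragments. 6330403L08Rik-201 had 0 and 85.5 fragments in the alignment tables, but 22.8 and 110 in the read tables. 4930524O07Rik-203 was at 1.10 and 8.69 TPM, a log2 ratio of 2.78. A330009N23Rik-203 had a log2 ratio of 1.77 in the alignment tables and -0.45 in the read tables.

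**Figure D5:**
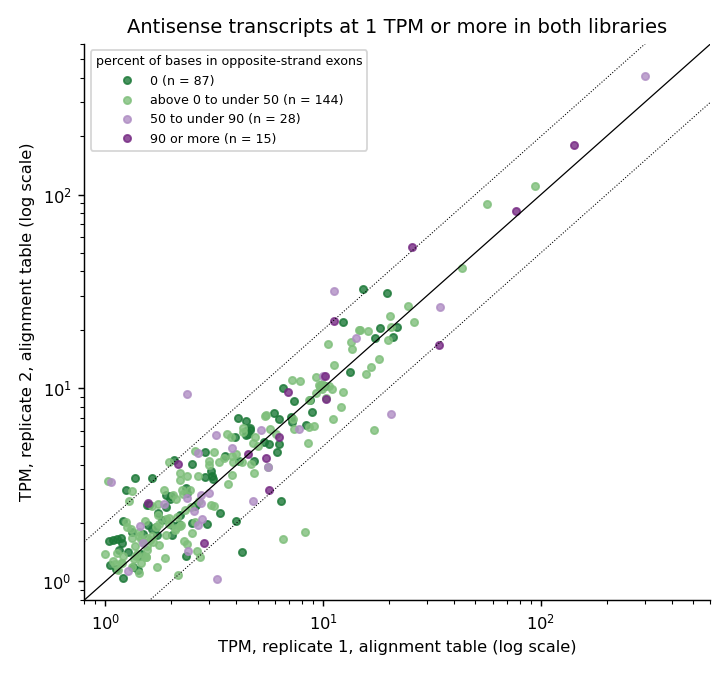
TPM of the 274 detected antisense transcripts in replicate 1 (horizontal) and replicate 2 (vertical) of the alignment tables, on log axes; colours give the percent of bases in opposite-strand exons, the solid line equality and the dotted lines 2-fold. Most points lie between the dotted lines, and Chn1os1-201 is the point at the upper right.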

How the data were processed

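Antisense transcripts were found by the transcript class in the names of the read table and joined to the alignment table, and all 4484 were found in both. Members, lists and the rule for named transcripts were chosen with earlier results of these data known. The rule names the 20 highest transcripts, the 6 furthest apart in each direction between libraries (mean CPM of at least 1) and between quantifications (at least 2 TPM in the higher), detected transcripts with a partner by symbol, and 10 genes by symbol. Gt(ROSA)26Sor-201 and Gm10421-202, the isoforms of Tug1, Rab10os and Sp3os, and the printed promoters were chosen after their values were seen.

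The authors deposited expected counts (alignment table) and estimated counts (read table) without normalization, and TPM scaled to a fixed sum, on mm10 with GENCODE M21, per the deposited notes. The isoform percent in the alignment table is the authors' percent of the gene's TPM, per the file headers. Column layouts are those of RSEM and kallisto. Names and versions of the authors' tools, and any use of strand, are not stated in those notes or headers.

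Expected counts were rounded for counting intervals (95%, Clopper-Pearson), which cover counting error only. Library sizes were TMM-scaled on the whole transcript table with edgeR 4.0.16, and DESeq2 1.42.0 size factors were an alternative. Scripts ran in R 4.3.3 and Python 3.11.15 and were tested on simulated data. Overlap with opposite-strand exons, start distances, layouts and 31-base words came from the GENCODE M21 annotation and transcripts, and the sense gene by position was the coding gene with the longest opposite-strand overlap. A partner by symbol was the symbol without a final os or as. Groups of pairs go by the first letters of the partner's symbol, which miss some genes of a class and take in a few others. The count test of edgeR was not run, since 1 group allows no contrast. Otx2os1 was not found as an antisense transcript.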

Additional observations from a re-analysis of the deposited data

How the results depend on the processing

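With 1 group of 2 libraries no value here has a replicate test, and depth limits transcripts near 1 TPM. No paired analysis was possible because there is 1 group. The 274 detected transcripts became 437 at a minimum of 0.5 TPM and 141 at 2 TPM, 87 among transcripts without opposite-strand exon bases and 103 among those with at least 90% of words of their own. They were 338 without replicate 1 and 338 without replicate 2. The 79 differences between libraries became 215 with no filter on low counts, 19 at a mean of at least 2 CPM, 51 with a pseudocount of 0.5 CPM and 11 without overlap, while total-count scaling gave 83, DESeq2 size factors 78 and the counts of the read tables gave 87. The 47 differences between quantifications became 24 with a pseudocount of 1 TPM, 16 at 5 TPM and 13 without overlap, and ranged from 65 to 72 with a replicate left out. The median antisense share of named pairs was 0.518% when each pair was averaged over both libraries before the median was taken. This median was 0.960% in the read tables, 0.219% with partners by position (2083 pairs) and 0.190% in 75 pairs without overlap. With a replicate left out it was 0.305% to 0.333%, but there no averaging within pairs takes place, so the statistic differs too. Of the transcripts named for their library difference, A330009N23Rik-203 reversed, to a log2 ratio of -0.45 in the read tables. The cause was not tested in any of these, other than where a stricter minimum tests fewer transcripts. Alternatives on opposite-strand overlap of levels, libraries, quantifications and pairs, and on words, were chosen after seeing the data.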
